A study of Oryza sativa with 12 samples.

Results

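Genes of the expansin, xyloglucan endotransglucosylase/hydrolase (XTH), cellulose synthase (CESA) and cellulose synthase-like (CSL) families build and remodel the plant cell wall. Their transcripts were compared in rice shoots with and without alkali salts. Members were the genes whose symbol or synonym in the array's gene annotation, without a leading Os, is EXPA, EXPB, EXLA, EXLB, XTH or CESA with a number, or CSL with a letter and a number. The rule gave 59 of the 17905 genes measured: 29 expansins (14 EXPA, 11 EXPB and 4 EXLA), 1 XTH, 9 CESA and 20 CSL genes (4 CSLA, 5 CSLC, 4 CSLD, 2 CSLE, 4 CSLF and 1 CSLH). Another 26 genes with such names in the RefSeq gene table had no assigned probe set and were not analysed here, among them 15 EXPA, 4 EXPB and 3 CSLF genes and the only EXLB gene.

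Each of the 12 Affymetrix arrays held RNA from a pool of 10 shoots of hydroponically grown seedlings of the rice genotypes K83 or Jijing88. Seedlings 7 days old were moved to new medium that held alkali salts at 50 mM or none, and shoots were taken after 24 h. The groups were K83 under alkali, K83 in control medium, Jijing88 under alkali and Jijing88 in control medium, with 3 biological replicates each. The labels used here state neither which salts were given nor how K83 and Jijing88 are related. All values below are log2 signals per probe set, a difference of 1 is a doubling, and levels are compared only within a gene.

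Growing plant cells are held in by cellulose microfibrils tied together by other polysaccharides. Alpha-expansins (EXPA) loosen this network at acidic pH without cutting it, beta-expansins (EXPB) include proteins that act on the glucuronoarabinoxylan-rich walls of grasses, and XTH enzymes cut and rejoin xyloglucan. CESA proteins form the plasma membrane complexes that spin cellulose, with separate sets for the primary wall of growing cells and the secondary wall laid down later. CSL proteins make backbones of other wall polymers: mannans (CSLA), the glucan backbone of xyloglucan (CSLC, known from Arabidopsis) and the mixed-linkage glucan of grasses (CSLF and CSLH).

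Arrays within a group correlated at 0.993 to 0.997 over all probe sets, and array medians lay between 5.13 and 5.18. Jijing88 control replicate 3 correlated at 0.9925 and 0.9926 with replicates 1 and 2 of its group, which correlated at 0.9969 with each other. In the fit with array weights it had the lowest weight, 0.465. The 4 shoot markers RBCS, RCA, LHCP and CAB2R had group means between 13.0 and 14.6 in all 4 groups. Of 12 markers of root, seed and meristem, 5 lay above the array medians in every group: the silicon channel gene LSI1, the glutelin gene GLUA2, the starch synthase gene WAXY, FON1 and WOX4. Of all 16 markers, 4 differed between media in Jijing88 past an adjusted p of 0.05 and none did in K83. WAXY had 7.70, 7.70 and 7.15 in Jijing88 alkali shoots, against 6.59, 6.42 and 6.51 in Jijing88 control shoots (a difference of 1.005, adjusted p = 0.000478). GLUA2 averaged 9.17 in Jijing88 alkali shoots and 8.77 in Jijing88 control shoots (adjusted p = 0.0227). CAB2R averaged 13.88 in Jijing88 alkali shoots and 13.39 in Jijing88 control shoots (adjusted p = 0.00455), and LHCP averaged 14.08 in alkali and 13.60 in control shoots (adjusted p = 0.00225). The alkali difference of these 2 genes also differed between genotypes, by -0.63 for CAB2R and -0.65 for LHCP in K83 minus Jijing88 (adjusted p = 0.0476 and 0.0269). FON1 averaged 8.89 in Jijing88 alkali shoots and 9.22 in Jijing88 control shoots (adjusted p = 0.0664). The 4 markers called between media moved beside the Jijing88 alkali differences given below, and their part in them was not tested. Between genotypes, WAXY differed by -1.708 under alkali (adjusted p = 2.07e-06) and -0.946 in control medium (adjusted p = 0.000364) in K83 minus Jijing88. Under alkali LSI1 (-0.594), CAB2R (-0.590) and LHCP (-0.466) were also called lower in K83, and RCA higher (0.525). No other marker was called between genotypes, and the part of these in the genotype differences below was not tested. The probe set for 25S ribosomal RNA stood at 8.04 to 8.53 in K83 shoots, at 9.68, 7.87 and 9.44 in Jijing88 alkali shoots, and at 7.85, 8.08 and 8.21 in Jijing88 control shoots. Jijing88 alkali replicates 1 and 3 thus stood apart on this probe set, and its part in the differences below was not tested. Whole shoots were measured, so that fewer cells of a type and less RNA per cell cannot be told apart.

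Of the 59 genes, 44 had group means above the array median in all 4 groups and 13 lay below it in all 4, close to background. The 13 were EXPA3, EXPA4, EXPA8, EXPA26, EXPA31, EXPA32, EXPB10, EXPB18, CESA2, CSLC3, CSLD1, CSLD5 and CSLF7. EXPA29 and EXPB9 lay on both sides. The pooled standard deviation within groups was 0.155 for the median member, against 0.137 for the median of all 57258 probe sets. The highest were EXLA1 (0.39), EXPB11 (0.382), EXPA1 (0.36), EXLA2 (0.35) and EXPB7 (0.324), all expansins, which lay at percentiles 97.0 to 98.2 of all probe sets. Other expansins were among the least variable members, with EXPA31 at percentile 4.8, EXPA10 at 14.8 and EXPA32 at 16.3. EXPB11 had 10.56, 9.52 and 10.10 in K83 alkali shoots and 11.17, 10.83 and 10.50 in K83 control shoots. In Jijing88 it had 11.12, 10.24 and 10.58 under alkali and 11.20, 11.14 and 11.22 in control medium. K83 replicates thus overlapped between media although the alkali mean was 0.77 lower (adjusted p = 0.0963).

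The first question was how the 24 h of alkali changed these genes in each genotype. In K83, 1 of 59 genes rose and 1 fell, or 1.69% each way, against 2.61% of all probe sets that rose and 3.85% that fell. In Jijing88, 1 of 59 rose (1.69%) and 9 fell (15.3%), against 4.29% and 4.07% of all probe sets. Rose and fell here mean a difference past an adjusted p of 0.05 in limma, with Benjamini-Hochberg adjustment over all 57258 probe sets. The gene that rose was CSLE1 in both genotypes, and EXPB17 fell in both. EXPA5, EXPA7, CESA3, CESA5, CESA6, CSLC9, CSLD1 and CSLD4 fell in Jijing88. The median difference of the 59 genes was -0.02 in K83 and -0.13 in Jijing88, beside -0.006 and -0.015 for all probe sets. All probe sets include 34727 matched to no gene and 27212 dim in all 4 groups. Their called shares, here and below, run low beside those of named genes. A separate fit of the 22436 probe sets matched to 1 gene called larger shares. There 1411 rose and 2383 fell in K83, and 2165 rose and 1964 fell in Jijing88. In that fit 1 member rose and 3 fell in K83, and 2 rose and 10 fell in Jijing88. Without Jijing88 alkali replicate 2, or without Jijing88 control replicate 2, the Jijing88 count dropped to 5 genes. The K83 count of 2 became 1 without Jijing88 alkali replicate 3, K83 alkali replicate 2 or 3, or K83 control replicate 1 or 2. It became 4 or 5 without Jijing88 control replicate 1 or 3, K83 alkali replicate 1 or K83 control replicate 3.

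**Figure D1:**
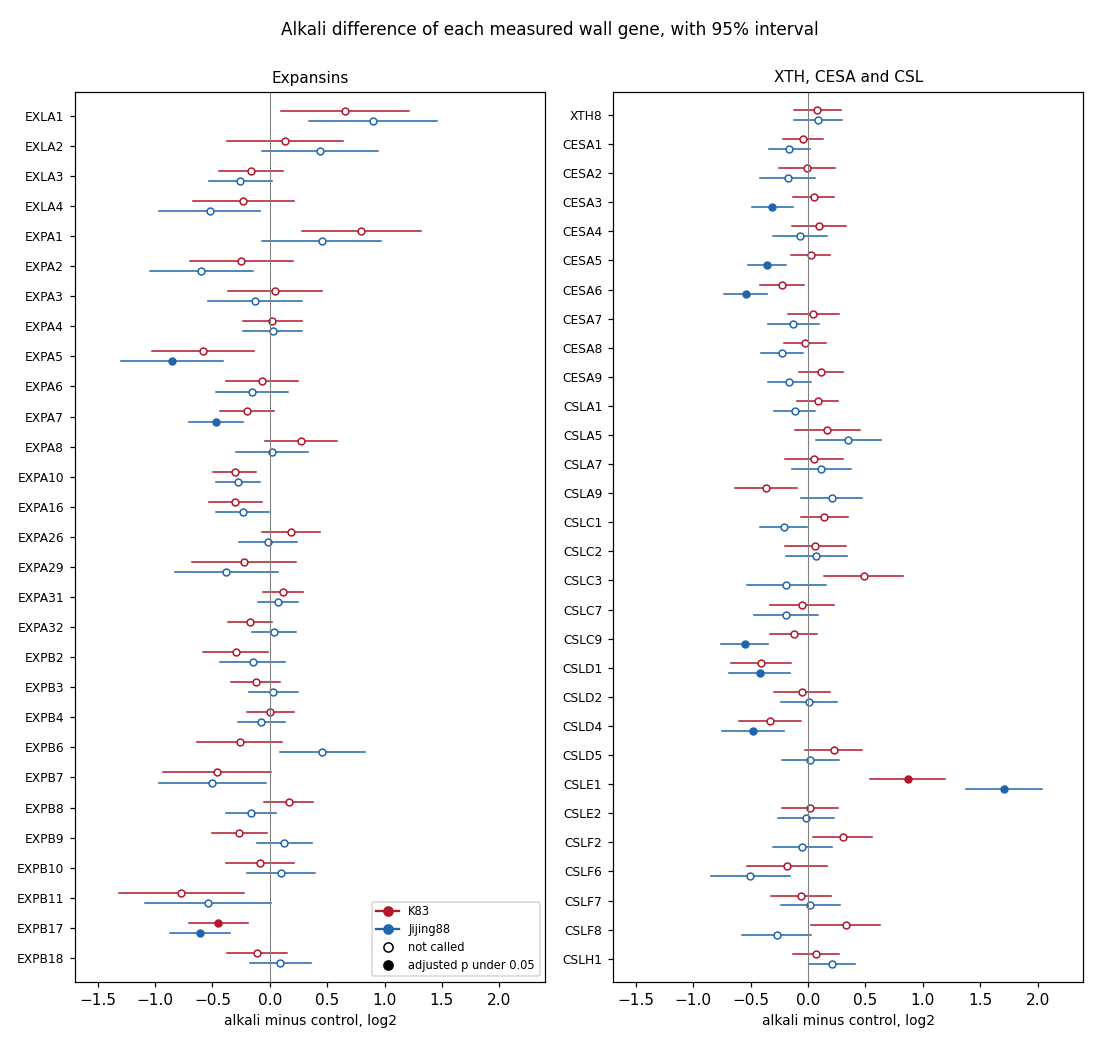
Differences between alkali and control shoots (log2, x axis) for each of the 59 genes (rows), with expansins on the left and XTH, CESA and CSL genes on the right. Red points and bars are K83, blue ones Jijing88, bars are 95% intervals, and filled points passed an adjusted p of 0.05. CSLE1 stands far to the right in Jijing88, while in K83 its 0.87 lies close to the 0.80 of EXPA1. The filled points left of 0 belong to Jijing88 except that of EXPB17 in K83.

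CSLE1 (LOC4347370), a glycosyltransferase gene of a CSL subfamily whose product is not established, had the largest alkali difference of the 59 genes in either genotype. In K83 it had 9.24, 9.26 and 9.25 under alkali, against 8.27, 8.44 and 8.43 in control medium. In Jijing88 it had 11.17, 10.40 and 10.71 under alkali, against 9.15, 8.88 and 9.13 in control medium. Every alkali array lay above every control array of its genotype, and all Jijing88 alkali arrays lay above all other arrays. The rise was 0.87 ± 0.15 in K83 (SE, 1.83-fold, adjusted p = 0.0044) and 1.71 ± 0.15 in Jijing88 (SE, 3.26-fold, adjusted p = 3.62e-05). It was called under all 21 alternatives tried in each genotype, between 0.81 and 0.90 in K83 and between 1.502 and 1.887 in Jijing88 when single arrays were left out. The 25S ribosomal RNA probe set was also high on Jijing88 alkali replicates 1 and 3, and its part in the rise was not tested. CSLE2, the other measured gene of the subfamily, differed by 0.02 in K83 and -0.02 in Jijing88 (adjusted p = 0.956 each) on its brightest probe set. Its other probe sets gave 0.59 and 0.24 in K83 (adjusted p = 0.0236 and 0.315) and 0.19 and 0.32 in Jijing88 (adjusted p = 0.509 and 0.149), and the name of the one called in K83 marks it as open to related transcripts. CSLE6, which lies next to CSLE1 in the RefSeq gene order, was not analysed here.

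**Figure D2:**
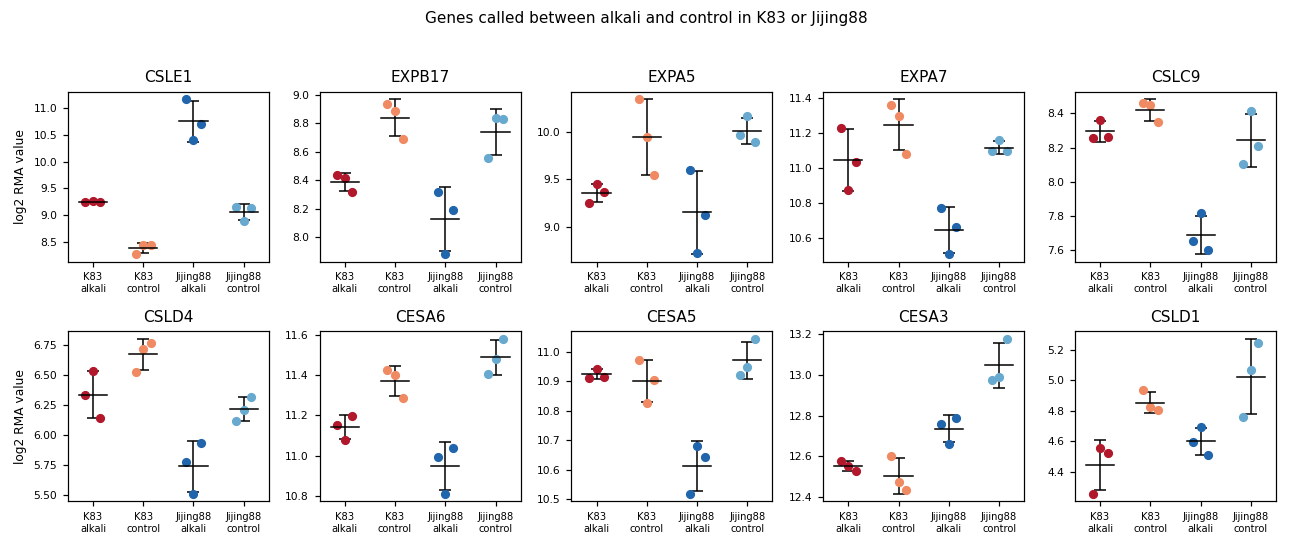
Log2 value on each array (points, y axis) of the 10 genes called between alkali and control in K83 or Jijing88, with the mean and standard deviation of the 3 replicates in black. Groups run K83 alkali, K83 control, Jijing88 alkali and Jijing88 control, and each panel has its own axis. CSLE1 is higher under alkali in both genotypes, and in the 9 other panels the Jijing88 alkali arrays lie below the Jijing88 control arrays.

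Among the 29 expansins, none rose and 1 fell in K83 (3.45%, against 3.85% of all probe sets), and none rose and 3 fell in Jijing88 (10.3%, against 4.07%). In the fit of the 22436 probe sets matched to 1 gene, 2383 fell in K83 and 1964 in Jijing88. Both are larger shares than those of all probe sets. That fit also called EXPA10 lower in both genotypes and EXLA1 higher in Jijing88. The expansin shares were not tested against either background. The median difference of the expansins was -0.16 in K83 and -0.13 in Jijing88, with 19 and 17 of 29 below 0. Without the dim probe sets both medians were lower, at -0.23 in K83 and -0.24 in Jijing88. EXPB17 (LOC4336479), a beta-expansin gene, had 8.44, 8.41 and 8.32 in K83 alkali shoots, against 8.94, 8.88 and 8.69 in K83 control shoots. In Jijing88 it had 8.32, 7.88 and 8.19 under alkali, against 8.55, 8.84 and 8.83 in control medium. The media did not overlap in either genotype. It fell by 0.45 in K83 (SE 0.12, adjusted p = 0.0423) and by 0.61 in Jijing88 (SE 0.12, adjusted p = 0.00644). The Jijing88 call was made under all 21 alternatives. The K83 call was lost, with adjusted p up to 0.144, without any 1 of the K83 alkali arrays, K83 control replicate 1 or 2, Jijing88 alkali replicate 3 or Jijing88 control replicate 2. It was also lost under quantile normalization (adjusted p = 0.0618) and with the replicate number as a block (adjusted p = 0.0606). A second probe set of EXPB17, close to background, lay on the other side of 0. It gave 0.08 in K83 (adjusted p = 0.834) and 0.16 in Jijing88 (adjusted p = 0.64).

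Both other expansin calls were alpha-expansins of Jijing88. EXPA5 (LOC4330706) had 9.26, 9.45 and 9.37 in K83 alkali shoots, against 10.34, 9.94 and 9.55 in K83 control shoots. It had 9.60, 8.74 and 9.13 in Jijing88 alkali shoots, against 9.96, 10.16 and 9.89 in Jijing88 control shoots. The alkali arrays lay below the control arrays in both genotypes. The difference was -0.58 in K83 (adjusted p = 0.12) and -0.85 in Jijing88 (SE 0.21, adjusted p = 0.0211). Leaving out Jijing88 alkali replicate 2 or 3, or Jijing88 control replicate 1 or 2, took the Jijing88 adjusted p to between 0.0531 and 0.0937.

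EXPA7 (LOC4334606) had 11.23, 10.87 and 11.04 in K83 alkali shoots, against 11.36, 11.30 and 11.08 in K83 control shoots, which overlapped. In Jijing88 it had 10.77, 10.51 and 10.66 under alkali, against 11.10, 11.16 and 11.10 in control medium, with no overlap. The difference was -0.20 in K83 (adjusted p = 0.335) and -0.47 in Jijing88 (SE 0.11, adjusted p = 0.0158). Without Jijing88 alkali replicate 2 the adjusted p in Jijing88 was 0.0619, and without Jijing88 control replicate 2 it was 0.0669. Both other probe sets of EXPA7 lay close to background, at 0.13 and 0.02 in Jijing88.

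Several expansins came near the threshold, and the 4 in this paragraph were chosen after their values were seen. EXLA1, an expansin-like gene whose wall activity is not established, had 11.62, 11.89 and 11.64 in K83 alkali shoots, against 10.38, 11.09 and 11.71 in K83 control shoots. It had 11.39, 11.61 and 11.71 in Jijing88 alkali shoots, against 10.59, 10.38 and 11.05 in Jijing88 control shoots. The K83 control arrays spanned more than the difference between the means. The difference was 0.66 in K83 (adjusted p = 0.168) and 0.90 in Jijing88 (adjusted p = 0.0502), and the Jijing88 difference passed under 10 of 21 alternatives. EXPA10 had similar differences in both genotypes, at -0.31 in K83 (adjusted p = 0.0561) and -0.28 in Jijing88 (adjusted p = 0.0724). EXPA1 differed by 0.80 in K83 (adjusted p = 0.0686) and 0.45 in Jijing88 (adjusted p = 0.322), and EXPA2 by -0.25 in K83 and -0.60 in Jijing88 (adjusted p = 0.573 and 0.106).

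The only XTH gene measured, XTH8 (LOC4345019), had 11.79, 11.85 and 11.82 in K83 alkali shoots, against 11.74, 11.61 and 11.86 in K83 control shoots. It had 11.44, 11.67 and 11.71 in Jijing88 alkali shoots, against 11.57, 11.56 and 11.41 in Jijing88 control shoots. The media overlapped in both genotypes. The alkali difference was 0.08 in K83 (95% interval -0.13 to 0.29, adjusted p = 0.713) and 0.09 in Jijing88 (95% interval -0.12 to 0.29, adjusted p = 0.689).

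All 9 cellulose synthase genes had lower means under alkali than in control medium in Jijing88, with a median difference of -0.18 and a range of -0.54 to -0.07, and CESA3, CESA5 and CESA6 fell (33.3%, against 4.07% of all probe sets). In K83 none of the 9 was called, their median was 0.02, and 4 of 9 lay below 0. In the fit of the 22436 probe sets matched to 1 gene, 1964 fell in Jijing88, a larger share than that of all probe sets. CESA genes are similar in sequence and were read from the same arrays, so that the 9 are not independent. The 8 CESA genes above background had their highest Jijing88 control value on replicate 3 and their highest K83 control value on replicate 1, in 8 of 8 cases each. Over all probe sets above background, those arrays were the highest of their group in 39.7% and 34.3% of cases.

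Of the primary-wall genes CESA1, CESA3 and CESA8, CESA3 alone was called between media, in Jijing88. CESA3 (LOC4343049) had 12.58, 12.55 and 12.53 in K83 alkali shoots and 12.60, 12.48 and 12.44 in K83 control shoots. It had 12.76, 12.66 and 12.79 in Jijing88 alkali shoots and 12.97, 12.99 and 13.18 in Jijing88 control shoots. The K83 media overlapped, and the Jijing88 media did not. The difference was 0.05 in K83 (adjusted p = 0.816) and -0.31 in Jijing88 (SE 0.08, adjusted p = 0.036). A second probe set of CESA3 gave -0.08 in K83 (adjusted p = 0.738) and -0.51 in Jijing88 (adjusted p = 0.00499). On the first probe set the Jijing88 call was lost, with adjusted p between 0.0527 and 0.108, without any 1 of the Jijing88 alkali or K83 alkali arrays or without Jijing88 control replicate 2 or 3. It was also lost in a fit of the 2 compared groups only (adjusted p = 0.126) and with array weights (adjusted p = 0.0526). In all, CESA3 was called in Jijing88 under 11 of 21 alternatives.

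CESA1 had 12.59, 12.47 and 12.62 in K83 alkali shoots and 12.66, 12.61 and 12.55 in K83 control shoots, a difference of -0.05 (adjusted p = 0.821). It had 12.71, 12.64 and 12.76 in Jijing88 alkali shoots and 12.79, 12.83 and 12.97 in Jijing88 control shoots, a difference of -0.16 (adjusted p = 0.289). CESA8 had 12.07, 11.94 and 11.999 in K83 alkali shoots and 12.16, 12.02 and 11.90 in K83 control shoots, a difference of -0.02 (adjusted p = 0.918). Both genes overlapped between media in K83. CESA8 had 12.23, 12.09 and 12.19 in Jijing88 alkali shoots and 12.35, 12.41 and 12.42 in Jijing88 control shoots, a difference of -0.23 (adjusted p = 0.142). The Jijing88 arrays of CESA1 and CESA8 did not overlap between media, and neither difference passed the test.

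CESA5 and CESA6 are further members of the family. CESA6 (LOC4342850) had 11.15, 11.08 and 11.20 in K83 alkali shoots, against 11.42, 11.40 and 11.29 in K83 control shoots. It had 10.99, 10.81 and 11.04 in Jijing88 alkali shoots, against 11.40, 11.48 and 11.58 in Jijing88 control shoots. Alkali arrays lay below control arrays in both genotypes. The K83 difference of -0.23 had an adjusted p of 0.153. In Jijing88 it fell by 0.54 (SE 0.09, adjusted p = 0.00182), a call made under all 21 alternatives. CESA5 (LOC4334710) had 10.91, 10.94 and 10.91 in K83 alkali shoots, against 10.97, 10.83 and 10.90 in K83 control shoots. In Jijing88 it had 10.52, 10.68 and 10.64 under alkali, against 10.92, 10.95 and 11.04 in control medium. The Jijing88 alkali arrays were the lowest of the 12. CESA5 differed by 0.02 in K83 (adjusted p = 0.915) and by -0.36 in Jijing88 (SE 0.08, adjusted p = 0.012), and the Jijing88 call held in 20 of 21 alternatives.

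The secondary-wall genes CESA4, CESA7 and CESA9, whose loss makes rice culms brittle, were not called between media in either genotype. CESA4 had 10.93, 10.92 and 11.05 in K83 alkali shoots and 10.95, 10.89 and 10.76 in K83 control shoots. It had 10.73, 10.66 and 11.04 in Jijing88 alkali shoots and 10.82, 10.80 and 11.02 in Jijing88 control shoots. CESA4 overlapped between all 4 groups. CESA7 had 10.71, 10.63 and 10.79 in K83 alkali shoots, 10.73, 10.69 and 10.58 in K83 control shoots, 10.21, 10.25 and 10.58 in Jijing88 alkali shoots and 10.39, 10.52 and 10.53 in Jijing88 control shoots. CESA9 had 9.21, 9.22 and 9.24 in K83 alkali shoots, 9.15, 9.12 and 9.06 in K83 control shoots, 8.90, 8.77 and 9.04 in Jijing88 alkali shoots and 9.01, 8.996 and 9.19 in Jijing88 control shoots. In each of the 3 genes Jijing88 alkali replicate 3 was the highest of its group. The alkali differences were 0.10, 0.04 and 0.11 in K83 for CESA4, CESA7 and CESA9, with adjusted p between 0.536 and 0.868. In Jijing88 they were -0.07, -0.13 and -0.16, with adjusted p between 0.329 and 0.785.

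**Figure D3:**
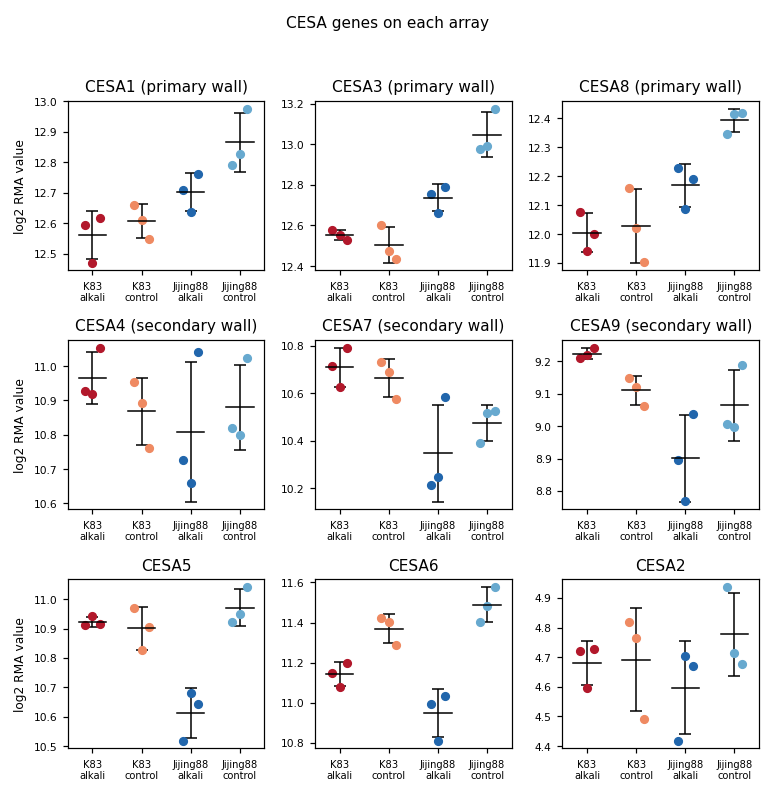
Log2 value on each array (points, y axis) of the 9 CESA genes, with primary-wall genes in the top row, secondary-wall genes in the middle row and CESA5, CESA6 and CESA2 below. Groups run K83 alkali, K83 control, Jijing88 alkali and Jijing88 control, black marks are the mean and standard deviation of 3 replicates, and each panel has its own axis. Primary-wall genes, CESA5, CESA6 and CESA2 have their highest mean in Jijing88 control shoots. In the 6 genes of the middle and bottom rows Jijing88 alkali shoots have the lowest mean.

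Of the 20 CSL genes, 1 rose and none fell in K83 (5% rose, against 2.61% of all probe sets), and 1 rose and 3 fell in Jijing88 (5% and 15%, against 4.29% and 4.07%). Their median difference was 0.06 in K83 and -0.03 in Jijing88. In the fit of the 22436 probe sets matched to 1 gene, 1411 rose and 2383 fell in K83, and 2165 rose and 1964 fell in Jijing88. Each is a larger share than that of all probe sets, and there CSLD1 also fell in K83. CSLC9 (LOC4334258), of the subfamily tied to the xyloglucan backbone, had 8.26, 8.36 and 8.26 in K83 alkali shoots, against 8.46, 8.45 and 8.35 in K83 control shoots. It had 7.66, 7.82 and 7.60 in Jijing88 alkali shoots, against 8.11, 8.41 and 8.21 in Jijing88 control shoots. The Jijing88 alkali arrays were the lowest of the 12. It differed by -0.12 in K83 (adjusted p = 0.526) and fell by 0.55 in Jijing88 (SE 0.10, adjusted p = 0.00284), a call made under all 21 alternatives. The 4 other CSLC genes were not called in either genotype.

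Both CSLD calls belong to genes with known growth phenotypes in rice. CSLD4 (LOC107276048), whose mutants have narrow and rolled leaves, had 6.33, 6.53 and 6.14 in K83 alkali shoots, against 6.53, 6.71 and 6.77 in K83 control shoots. It had 5.77, 5.51 and 5.93 in Jijing88 alkali shoots, against 6.12, 6.21 and 6.32 in Jijing88 control shoots. The media overlapped in K83 and stood apart in Jijing88. The difference was -0.33 in K83 (adjusted p = 0.144) and -0.48 in Jijing88 (SE 0.12, adjusted p = 0.0323). The call was lost without Jijing88 alkali replicate 1 or 2 or any 1 of the Jijing88 control arrays, with adjusted p between 0.0501 and 0.115. It was also lost in the fit of the 2 compared groups only (adjusted p = 0.0679). The probe set's name marks it as one whose probes may also bind other transcripts, so that its values are uncertain.

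CSLD1, known for root hair growth, had 4.26, 4.56 and 4.52 in K83 alkali shoots, against 4.93, 4.82 and 4.80 in K83 control shoots. It had 4.60, 4.69 and 4.51 in Jijing88 alkali shoots, against 4.76, 5.07 and 5.24 in Jijing88 control shoots. All 4 group means lay below the array medians, close to background, and alkali arrays lay below control arrays in both genotypes. The differences were -0.41 in K83 (adjusted p = 0.066) and -0.42 in Jijing88 (SE 0.12, adjusted p = 0.0482). The Jijing88 call was made under only 5 of 20 alternatives and in 2 of the 12 fits with 1 array left out, those without Jijing88 control replicate 1 or K83 alkali replicate 1.

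CSLF6, the main mixed-linkage glucan synthase gene of grasses, was named after its values were seen. It had 11.51, 11.14 and 11.47 in K83 alkali shoots, against 11.70, 11.61 and 11.36 in K83 control shoots. It had 11.33, 10.82 and 11.52 in Jijing88 alkali shoots, against 11.76, 11.76 and 11.66 in Jijing88 control shoots. The difference was -0.18 in K83 (adjusted p = 0.59) and -0.50 in Jijing88 (adjusted p = 0.076), with the media apart in Jijing88 and overlapping in K83. Its other probe sets lay close to background, at 0.211 and 0.217 in K83 and -0.021 and 0.010 in Jijing88, none called. CSLH1 and the 4 CSLA genes had no call between media.

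The second question was whether alkali acted differently in the genotypes, tested as the alkali difference in K83 minus that in Jijing88. None of the 59 genes passed, against 0.629% of all probe sets in either direction. At an unadjusted p under 0.05, 13 of 59 genes differed, beside 8023 of all 57258 probe sets (14%). The share of the members was larger, and the 2 shares were not tested against each other. CSLE1 had the smallest adjusted p, with a difference between the effects of -0.84 (95% interval -1.30 to -0.37, adjusted p = 0.103), its rise being smaller in K83. Without Jijing88 alkali replicate 2 it passed as the only gene of the 59. The K83 difference lay above the Jijing88 difference in 9 of 9 CESA genes, by 0.12 to 0.38. CESA5 differed most among them, at 0.38 (adjusted p = 0.145), and CESA3 by 0.36 (adjusted p = 0.192). It lay above in 12 of 20 CSL genes and in 16 of 29 expansins, among them 10 of 14 EXPA and 4 of 11 EXPB genes, beside 28561 of all 57258 probe sets. These counts were not tested against each other. CSLC9, EXPA5, EXPA7 and EXPB17 had differences between the effects of 0.43, 0.27, 0.27 and 0.16, with adjusted p of 0.172, 0.735, 0.463 and 0.721. The calls of CSLC9, EXPA5 and EXPA7 in Jijing88 alone are therefore not shown to be differences between genotypes.

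The third question was how the genotypes differed in the same medium. Under alkali, 11 of 59 genes were higher and 3 lower in K83 than in Jijing88 (18.6% and 5.08%), against 7.05% and 7.25% of all probe sets. In control medium, 4 were higher and 6 lower (6.78% and 10.2%), against 6.18% and 5.44% of all probe sets. The fit of the 22436 probe sets matched to 1 gene gave 2839 higher and 3287 lower under alkali. In control medium it gave 2952 and 2377. There 11 members were higher and 3 lower under alkali, and 4 and 8 in control medium. With both directions counted, members had a smaller called share than that fit's probe sets in each medium. Their share of higher calls under alkali, and of lower calls in control medium, was larger. These shares were not tested against each other. EXPB2, CSLA9, CSLD4 and EXPA16 were higher in K83 in both media, and CSLE1 and CSLH1 were lower in K83 in both. These comparisons use the same arrays as the alkali comparisons, so that a low group moves both. Whether the probes match the transcripts of both genotypes equally was not tested. Without Jijing88 alkali replicate 1, K83 alkali replicate 2 or K83 alkali replicate 3 the count under alkali was 8, and without Jijing88 alkali replicate 2 it was 9. The count in control medium was 6 without K83 control replicate 2 and 5 without K83 control replicate 3.

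**Figure D4:**
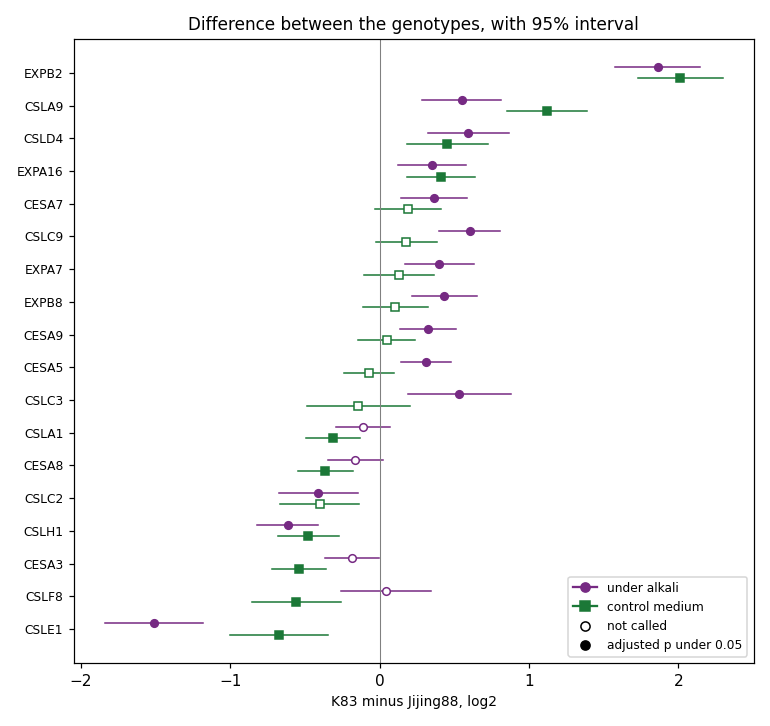
Differences between K83 and Jijing88 (log2, x axis) for the 18 genes called in either medium (rows), with purple circles for alkali, green squares for control medium, 95% intervals as bars, and filled marks for an adjusted p under 0.05. EXPB2 stands apart on the right in both media, and CSLE1 lies farthest to the left, more so under alkali.

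EXPB2 (LOC4349348), a beta-expansin gene, had the largest genotype difference of the 59 genes. It had 10.49, 10.39 and 10.38 in K83 alkali shoots, against 8.59, 8.45 and 8.64 in Jijing88 alkali shoots. In control medium it had 10.77, 10.70 and 10.69 in K83, against 8.32, 8.91 and 8.88 in Jijing88. Every K83 array lay above every Jijing88 array by more than 1 log2 unit. K83 was higher by 1.86 under alkali (SE 0.13, 3.64-fold, adjusted p = 7.87e-07) and by 2.01 in control medium (SE 0.13, 4.04-fold, adjusted p = 3.7e-07). Both calls were made under all 21 alternatives. EXPB2 was read from a single probe set. Alkali itself moved EXPB2 by -0.30 in K83 and -0.15 in Jijing88, neither called.

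In the gene order of the RefSeq table EXPB6, EXPB2, EXPB3 and EXPB4 follow each other with no gene between them, and the neighbours were looked at after the values of EXPB2 were seen. EXPB3 had 12.83, 12.57 and 12.70 in K83 alkali shoots, 12.92, 12.80 and 12.75 in K83 control shoots, 12.84, 12.90 and 12.73 in Jijing88 alkali shoots and 12.65, 12.79 and 12.93 in Jijing88 control shoots. EXPB4 had 11.72, 11.59 and 11.66 in K83 alkali shoots, 11.72, 11.57 and 11.65 in K83 control shoots, 11.77, 11.77 and 11.52 in Jijing88 alkali shoots and 11.67, 11.72 and 11.88 in Jijing88 control shoots. Both overlapped between genotypes in both media. EXPB6 had 10.48, 9.96 and 10.13 in K83 alkali shoots, 10.62, 10.53 and 10.22 in K83 control shoots, 10.52, 10.48 and 10.43 in Jijing88 alkali shoots and 9.67, 10.01 and 10.38 in Jijing88 control shoots. Genotype differences of the 3 neighbours were -0.28, -0.12 and -0.03 under alkali for EXPB6, EXPB3 and EXPB4, and 0.44, 0.04 and -0.11 in control medium, none called. The probe set of EXPB4 may bind transcripts of related genes, as its name marks.

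**Figure D5:**
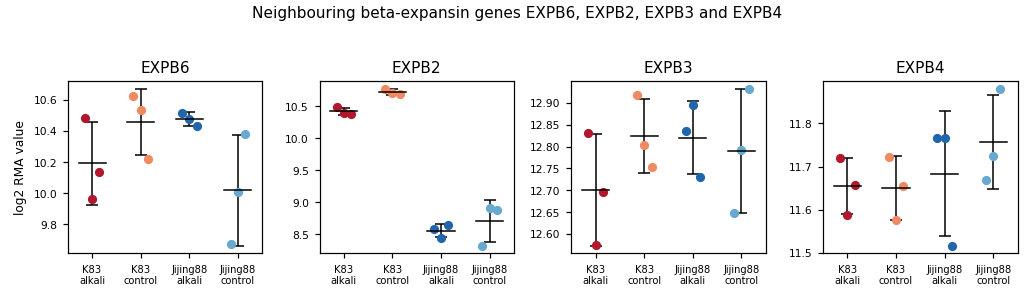
Log2 value on each array (points, y axis) of 4 beta-expansin genes in their order along the chromosome, with the mean and standard deviation of 3 replicates in black and an axis per panel. Groups run K83 alkali, K83 control, Jijing88 alkali and Jijing88 control. EXPB2 separates the genotypes, and the groups of EXPB6, EXPB3 and EXPB4 overlap between them.

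Other expansins differed less between genotypes. EXPA16 had 7.09, 7.08 and 7.06 in K83 alkali shoots, against 6.76, 6.87 and 6.54 in Jijing88 alkali shoots. In control medium it had 7.26, 7.48 and 7.39 in K83, against 6.78, 7.03 and 7.07 in Jijing88. The genotypes did not overlap in either medium, and K83 was higher by 0.35 under alkali (adjusted p = 0.0422) and by 0.41 in control medium (adjusted p = 0.0215). The alkali call was lost in 7 of 12 fits with 1 array left out, those without any 1 of the K83 alkali arrays, Jijing88 alkali replicate 1 or 3, Jijing88 control replicate 2 or K83 control replicate 3, with adjusted p up to 0.155. That alkali call was also lost with median centring (adjusted p = 0.0625), an intensity trend (0.0528) and a fit of the 2 compared groups only (0.0526), and held in 11 of 21 alternatives. The control call was lost without Jijing88 control replicate 1 or K83 control replicate 2 or 3, with adjusted p up to 0.0948, and in the fit of 2 groups (0.0501). EXPA7 was higher in K83 by 0.40 under alkali (adjusted p = 0.0243), where its Jijing88 alkali arrays lay below all others. Another EXPA7 probe set, close to background, went the other way there (-0.39, adjusted p = 0.0255). The first call was lost without Jijing88 alkali replicate 2 or 3 or K83 alkali replicate 1 or 3, with adjusted p up to 0.114. It was also lost in the fit of the 2 compared groups only (adjusted p = 0.0519). EXPB8 had 5.57, 5.89 and 5.61 in K83 alkali shoots, against 5.19, 5.34 and 5.23 in Jijing88 alkali shoots, a difference of 0.43 (adjusted p = 0.0102) that reached an adjusted p of 0.052 without K83 alkali replicate 2. In control medium EXPB8 overlapped between genotypes, at 5.64, 5.55 and 5.38 in K83 and 5.36, 5.46 and 5.44 in Jijing88. The Jijing88 values of EXPB8 in both media lay only a little above the array medians of 5.13 to 5.18. XTH8 was 0.21 higher in K83 under alkali and 0.22 higher in control medium, with an adjusted p of 0.182 in each.

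The CESA values by array given above also compare the genotypes. In control medium the primary-wall genes CESA3 and CESA8 were lower in K83, with differences of -0.54 (SE 0.08, adjusted p = 0.000753) and -0.36 (SE 0.09, adjusted p = 0.0129). CESA1 differed by -0.26 (adjusted p = 0.0609). The secondary-wall genes CESA4, CESA7 and CESA9 differed there by -0.01, 0.19 and 0.05, none called. Under alkali CESA7 and CESA9 were higher in K83 by 0.36 (adjusted p = 0.0313) and 0.32 (adjusted p = 0.0248), CESA4 differed by 0.16 (adjusted p = 0.416), and CESA5 was higher by 0.31 (adjusted p = 0.0167). The primary-wall genes CESA1, CESA3 and CESA8 differed under alkali by -0.14, -0.18 and -0.16, none called, while the second CESA3 probe set was lower in K83 (-0.38, adjusted p = 0.0185). CESA3 kept its control call under all 21 alternatives, and the second probe set gave -0.81 in that medium (adjusted p = 8.98e-05). CESA8 lost it without K83 control replicate 3 (adjusted p = 0.0631). Under alkali, CESA7 lost its call without Jijing88 alkali replicate 1 or 2 or K83 alkali replicate 1 or 3, CESA9 without either of those Jijing88 arrays or any 1 of the K83 alkali arrays, and CESA5 without Jijing88 alkali replicate 1 or K83 alkali replicate 2 or 3, with adjusted p up to 0.127, 0.0893 and 0.0735. CESA7 and CESA9 also lost it in the fit of the 2 compared groups only (adjusted p = 0.0736 and 0.0504).

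CSL genes differed in both directions. CSLA9 (LOC4341571), of the mannan synthase subfamily, had 8.23, 8.38 and 8.23 in K83 alkali shoots, against 7.47, 7.84 and 7.89 in Jijing88 alkali shoots. In control medium it had 8.52, 8.76 and 8.66 in K83, against 7.33, 7.67 and 7.58 in Jijing88. The genotypes did not overlap in either medium. K83 was higher by 0.55 under alkali (SE 0.12, adjusted p = 0.00859) and by 1.12 in control medium (SE 0.12, 2.17-fold, adjusted p = 4.74e-05), both called under all 21 alternatives. CSLA1, which shares a synonym with CSLA9 in the annotation, went the other way in control medium, at -0.31 (adjusted p = 0.029). That call was lost without any 1 of the K83 control arrays or Jijing88 control replicate 2 or 3, and in the fit of the 2 compared groups only (adjusted p = 0.0682).

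CSLE1 was lower in K83, with differences of -1.51 under alkali (SE 0.15, adjusted p = 2.04e-05) and -0.67 in control medium (SE 0.15, adjusted p = 0.0104). CSLH1 (LOC4348359), of a subfamily that makes mixed-linkage glucan, had 9.67, 9.59 and 9.75 in K83 alkali shoots, against 10.28, 10.13 and 10.45 in Jijing88 alkali shoots. It had 9.60, 9.63 and 9.58 in K83 control shoots, against 10.02, 10.02 and 10.20 in Jijing88 control shoots. Every K83 array lay below every Jijing88 array. The difference was -0.62 under alkali (SE 0.09, adjusted p = 0.000625) and -0.48 in control medium (SE 0.09, adjusted p = 0.00438), both called under all 21 alternatives. CSLF8, of the other mixed-linkage glucan subfamily, had 8.02, 7.78 and 7.75 in K83 control shoots, against 8.30, 8.21 and 8.72 in Jijing88 control shoots, a difference of -0.56 (adjusted p = 0.0185). That call was lost without K83 control replicate 2 or 3 or Jijing88 control replicate 3, with adjusted p up to 0.0723. Under alkali it had 8.28, 8.06 and 8.19 in K83 and 8.20, 7.92 and 8.28 in Jijing88, which overlapped. That difference was 0.04 (adjusted p = 0.897), and the change in the genotype difference was not called (0.60, adjusted p = 0.188). Its neighbour CSLF2 differed by 0.29 under alkali and -0.07 in control medium, neither called.

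CSLC9 was higher in K83 by 0.60 under alkali (SE 0.10, adjusted p = 0.000769) and by 0.18 in control medium, which was not called (adjusted p = 0.287). CSLD4 was higher in K83 by 0.60 under alkali (adjusted p = 0.00563) and by 0.45 in control medium (adjusted p = 0.0319). The control call of CSLD4 was lost without Jijing88 control replicate 1 or 2 or K83 control replicate 2 or 3, with adjusted p up to 0.113. CSLC2 had 7.54, 7.29 and 7.67 in K83 alkali shoots, against 7.83, 8.03 and 7.86 in Jijing88 alkali shoots, a difference of -0.41 (adjusted p = 0.0393). It was called in 4 of 12 fits with 1 array left out, those without any 1 of the Jijing88 control arrays or without K83 alkali replicate 3. CSLC3, the remaining call under alkali, lay close to background in all 4 groups (0.53, adjusted p = 0.0405), and was called in 4 of 12 such fits. It was not called in the fit of the 2 compared groups only (adjusted p = 0.0957).

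A further 40 genes of wall synthesis and breakdown, picked by name, were read for context. In K83 1 rose and 4 fell under alkali, with a median of -0.06 (2.5% and 10%, against 2.61% and 3.85% of all probe sets). In Jijing88 4 rose and 5 fell (10% and 12.5%, against 4.29% and 4.07%), with a median of -0.12. 4CL2, a 4-coumarate:CoA ligase gene of the lignin precursor pathway, had 9.59, 9.29 and 9.44 in K83 alkali shoots, against 10.59, 10.31 and 10.44 in K83 control shoots. It had 8.40, 9.41 and 8.97 in Jijing88 alkali shoots, against 10.17, 10.27 and 9.89 in Jijing88 control shoots. It fell by 1.01 in K83 (adjusted p = 0.00894) and by 1.18 in Jijing88 (adjusted p = 0.0023). CAD3, named as a cinnamyl alcohol dehydrogenase gene of the same pathway, fell by 0.81 in K83 (adjusted p = 0.000292) and by 1.05 in Jijing88 (adjusted p = 3.57e-05). SUS4, a sucrose synthase gene, rose by 0.66 in K83 (adjusted p = 0.00126) and by 1.04 in Jijing88 (adjusted p = 3.94e-05). GLU14, an endoglucanase gene, fell by 0.77 in K83 (adjusted p = 0.015; up to 0.0724 without K83 alkali replicate 2 or K83 control replicate 2).

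Between genotypes, 4 of these 40 genes were higher and 13 lower in K83 under alkali (10% and 32.5%, against 7.05% and 7.25% of all probe sets). In control medium 3 were higher and 6 lower (7.5% and 15%, against 6.18% and 5.44%), and the 3 higher ones had the largest differences. The fit of the 22436 probe sets matched to 1 gene called larger shares than those of all probe sets. It gave 2839 higher and 3287 lower under alkali, and 2952 and 2377 in control medium. BC1L2, a gene of the COBRA-like family that takes part in cellulose deposition, was higher in K83 by 0.99 under alkali (adjusted p = 0.00834) and by 1.40 in control medium (adjusted p = 0.000921). GLU14 was higher by 0.68 under alkali (adjusted p = 0.0134; up to 0.0602 without Jijing88 alkali replicate 3 or K83 alkali replicate 1 or 3) and by 1.15 in control medium (adjusted p = 0.000452). CAD7 was higher by 0.70 in control medium (adjusted p = 0.00641). PMEI28, a pectin methylesterase inhibitor gene, differed by -0.83 under alkali (adjusted p = 0.00773), and PAL06, a phenylalanine ammonia-lyase gene, by -0.77 (adjusted p = 0.00896). SUS4 was lower in K83 under alkali (-0.76, adjusted p = 0.000128) and in control medium (-0.39, adjusted p = 0.0166; up to 0.0705 without Jijing88 control replicate 1 or K83 control replicate 1).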

How the data were processed

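The authors deposited log2 signals for each probe set on 12 Affymetrix arrays. Per the submitters' processing notes, RMA and limma were used, with no versions or roles given. The log2 scale was read from the values, and no further normalization was applied. Of 57381 probe sets, 123 controls were left out, which leaves 57258. Precision is set by the number of arrays, 3 per group.

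Groups come from the labels' genotype and stress entries. limma 3.58.1 in R 4.3.3 fitted 4 group means without covariates (8 residual degrees of freedom, eBayes). There were 5 contrasts, with two-sided tests and Benjamini-Hochberg adjustment over all probe sets of a contrast. An adjusted p under 0.05 is a call. Intervals are at 95%. The scripts were tested on simulated data.

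Genes were assigned from the array annotation and a RefSeq gene table (assembly ASM3414082v1, Japonica group), with 22436 probe sets matched to 1 gene, 95 to several and 34727 to none. Where a gene had several probe sets (9 of the 59 members), the one with the highest average level on the 12 arrays was used. The array's genome build is not given in the sources used here, so that no coordinates are printed, and protein or promoter sequences were not used here. The members and lists were chosen with earlier results of these data known. Named members are CSLE1, each member called in an alkali contrast or in the difference between the effects, per family the 3 largest calls each way between genotypes, XTH8 as the family without an alkali call, and the 6 primary-wall and secondary-wall CESA genes. Others are said to be chosen after their values were seen or are given as neighbours, close homologues or examples of spread. Of the 40 other wall genes, up to 3 calls per contrast are named by size, and some genes so named are also given in the other contrasts. 1 of these, bHLH081, was matched by a shared synonym only.

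Same-numbered replicates of different groups were compared by the correlation of their deviations from the group means. It exceeded 0.1 in 7 of 18 pairs (range -0.08 to 0.22). The replicate 1 pairs had 0.154 to 0.195, except Jijing88 alkali with Jijing88 control (-0.022). The others above 0.1 were 0.170 for replicate 2 of the alkali groups and 0.216 for replicate 3 of the control groups. Pairs of unlike number were not compared, so that this check cannot decide whether a number marks a shared factor. The labels do not say what a number shares across groups, so that the numbers were not taken as pairs. Alternatives were median centring, quantile normalization, dim probe sets left out, probe sets with 1 gene only, an intensity trend, array weights, a fit of 2 groups only, the replicate block, each array left out in turn and the probe set with the largest spread.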

Additional observations from a re-analysis of the deposited data

How the results depend on the processing

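Of 10 genes called between alkali and control in Jijing88, the count ran between 7 and 12 under the 9 alternatives that kept all arrays and between 5 and 11 with single arrays left out. In K83 the 2 calls became 6 in the fit of 2 groups only, 5 with array weights, 4 with median centring, 4 with probe sets of 1 gene only and 1 with quantile normalization. They ran between 1 and 5 with single arrays left out. The replicate block gave 12 calls in Jijing88, 4 in K83, 0 for the difference between the effects, and 14 between genotypes under alkali and 11 in control medium. The replicate numbers were not taken as pairs, so that no call lost under the block is read as a weaker effect; EXPB17 in K83 had an adjusted p of 0.0606 and CSLC2 between genotypes under alkali 0.0579. For the difference between the effects the count stayed at 0 in all alternatives but 1, and single arrays left out gave 0 to 1. Between genotypes the 14 calls under alkali became 9 in the fit of 2 groups only and ran between 8 and 14 with single arrays left out, and the 10 calls in control medium ran between 5 and 12. Median centring turned 153 higher and 207 lower calls over all probe sets into 110 and 304 for the difference between the effects. Without Jijing88 control replicate 3, 646 probe sets were called for that difference, against 360 with all arrays. No called member changed sign under any alternative. CSLE2, not called between genotypes in control medium (0.04), gave -0.62 on its probe set with the largest spread, which was called (adjusted p = 0.0109). Without dim probe sets the median alkali difference of the expansins was -0.24 in Jijing88, against -0.13 with them. Choosing members by symbol alone gave none, since all symbols of the members are locus numbers, so that this alternative gave no value. The causes of these changes were not tested. With 3 arrays per group, the smallest difference called for a member was 0.31 in size.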

Other observations

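Probe sets of 1 gene did not always move alike. The third probe set of CSLE2 was lower in K83 than in Jijing88 under alkali (-0.48, adjusted p = 0.0204), where the brightest gave 0.08 (adjusted p = 0.737). CESA1 had a second, dimmer probe set at 0.18 in K83 (adjusted p = 0.609) and -0.50 in Jijing88 (adjusted p = 0.0766), against -0.05 and -0.16 on the brighter one. Both CESA4 probe sets were uncalled in both genotypes, at 0.06 and 0.10 in K83 and -0.17 and -0.07 in Jijing88.

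Within groups, the 21 expansins above background were spread unevenly over the arrays. In Jijing88 control shoots replicate 1 was the lowest array for 15 of 21, and in K83 control shoots replicate 3 was the lowest for 13 of 21, against 33.6% and 34.7% of all probe sets above background. EXPA2 was one of them, with 11.44, 10.95 and 10.93 in K83 control shoots.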
